A study of Mus musculus with 16 samples.

Results

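Osteopontin and 9 genes of lipid-associated macrophages were followed through brown adipose tissue of Ucp1-knockout (KO) and wild-type (WT) mice. The 10 genes are Spp1, Lgals3, Chil3, Trem2, Tyrobp, Clec4d, Cd44, Cd9, Cd63 and Gpnmb. They were named as a set with earlier results of these data in view, and all 10 were found by symbol among the 15350 genes that have a value in each library. The rule is a list of symbols, and it is taken as chosen by their levels in KO tissue after isoproterenol, as seen in those earlier results. For any comparison that holds those libraries the values of the 10 genes are therefore a description, given without a test.

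Lipid-associated macrophages are macrophages of fat tissue that gather around dying or lipid-laden adipocytes, take up their lipid and break it down in lysosomes. Trem2 encodes the lipid-sensing receptor of these cells, and it signals through the adaptor protein that Tyrobp encodes. Osteopontin, the product of Spp1, is a secreted glycoprotein that macrophages make in injured or inflamed tissue and that binds integrins and the CD44 receptor. In brown fat, heat is made by adipocytes rich in mitochondria through UCP1, and macrophages are a minor population of the tissue.

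All mice were C57BL/6J, and the tissue was interscapular brown fat taken after 3 days with an implanted minipump. The 4 groups, of 4 libraries each, were Ucp1-/- mice infused with isoproterenol, WT mice infused with isoproterenol, Ucp1-/- mice infused with saline and WT mice infused with saline. Isoproterenol, an agonist of beta-adrenergic receptors that activates brown fat, was given at 60 mg per kg per day. The labels used here give no age, no sex and no description of which part of Ucp1 was deleted, and they do not say whether each library came from a separate animal.

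Libraries held 9004515 to 20986735 reads over the listed genes, and levels are given as CPM (reads per 1000000 reads, taken back from log2 CPM). These levels keep the 0.5 read that the deposited values add to each count, which lifts the lowest of them. Without that addition 3 reads were worth 0.143 to 0.345 CPM. Ucp1 itself read 19.0, 268, 848 and 2129 CPM in KO isoproterenol replicates 1 to 4, 8905 to 18458 CPM in WT mice with isoproterenol, 410 to 1156 CPM in the KO saline group and 2298 to 3449 CPM in the WT saline group. Reads outside a deleted part are counted too, so this is no check of the genotype. On the first principal component of all genes (50.3% of the variance) the KO isoproterenol libraries lay at 176, 100, 107 and 57.5, against -62.0 to 3.97 for the 12 other libraries. The summed level of 9 brown adipocyte markers was 1344, 4482, 7976 and 13864 CPM in KO isoproterenol replicates 1 to 4, 12843 to 15417 CPM in WT mice with isoproterenol, 15286 to 17974 CPM in the KO saline group and 15018 to 18784 CPM in the WT saline group. Replicates 1 and 4 of KO isoproterenol thus stood at the ends of their group, and the 10 genes are given per library.

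Promoter sequence was at hand for 9 of the 10 genes (RefSeq, build GRCm38.p6, Tyrobp not matched), as windows from 250 bases before to 50 bases after the annotated start. The 3 stretches shown are those of the gene with the highest level and of the receptor that marks these cells, each as the 250 bases before the start, and of the AP-1 match in Gpnmb. Capitals mark matches to the motifs searched, which were PU.1 (GAGGAAG), RUNX (TGTGGTT), AP-1 (TGANTCA), C/EBP (TTGCNNAA), NF-kB (GGGA, then any base, then TTTCC) and the E-box of MITF and TFE factors (CACGTG), on either strand.
Spp1, chr5:104434861-104435110, plus strand: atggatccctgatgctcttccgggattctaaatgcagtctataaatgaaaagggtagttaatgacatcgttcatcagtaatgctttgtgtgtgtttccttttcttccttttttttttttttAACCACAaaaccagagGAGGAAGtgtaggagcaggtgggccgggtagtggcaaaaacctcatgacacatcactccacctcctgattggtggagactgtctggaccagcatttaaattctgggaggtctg
Trem2, chr17:48346151-48346400, plus strand: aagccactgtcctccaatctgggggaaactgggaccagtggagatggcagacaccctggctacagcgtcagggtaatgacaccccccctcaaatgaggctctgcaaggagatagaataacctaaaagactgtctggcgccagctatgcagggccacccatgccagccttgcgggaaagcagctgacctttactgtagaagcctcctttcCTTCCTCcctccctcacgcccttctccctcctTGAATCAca
Gpnmb, chr6:49036516-49036542, plus strand: caggggcaagTGACTCAtgagcacgag
In the Spp1 stretch the capitals are a RUNX match on the opposite strand followed by a PU.1 match. In the Trem2 stretch they are a PU.1 match on the opposite strand and then an AP-1 match, and in the Gpnmb stretch an AP-1 match that begins 9 bases after the start. PU.1 letters were present in 5 of 10 windows (Cd44, Spp1, Clec4d, Cd63 and Trem2, with Spp1 holding 2 of the windows), against 13.6% of all 32851 windows. AP-1 letters were present in 2 windows (Gpnmb and Trem2) against 7.81%, C/EBP letters in 2 (the second Spp1 window and Trem2) against 10.8%, and RUNX letters in 2 (Spp1 and Gpnmb) against 5.27%. The E-box and the NF-kB letters were in none of the 10 windows, against 7.15% and 0.411% of all windows. No 2 of the capitalised matches overlap in the stretches shown. These are matches of letters only, and no binding was measured.

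All 10 genes had their highest levels in KO tissue after isoproterenol. Each of the 4 KO isoproterenol libraries lay above all 12 other libraries for 10 of the 10 genes, a pattern that 9.97% of all genes had, and since the genes were chosen for it nothing is read from that count. Per kilobase of transcript, the mean level in KO isoproterenol was highest for Spp1 (1196 CPM per kb), followed by Lgals3 (1058), Gpnmb (378), Chil3 (332), Tyrobp (328), Cd63 (307), Trem2 (117), Clec4d (67.3), Cd9 (52.7) and Cd44 (33.0). The 4 libraries of that group spread so widely that neighbours in this order overlap. In WT isoproterenol, KO saline and WT saline the order opened instead with Cd63 (74.8, 67.9 and 71.0 CPM per kb in those 3 groups), then Tyrobp and Lgals3, and Spp1 was 6th, 8th and 9th of the 10. In these bulk samples a larger number of macrophages and more RNA of a gene per macrophage cannot be told apart.

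**Figure D1:**
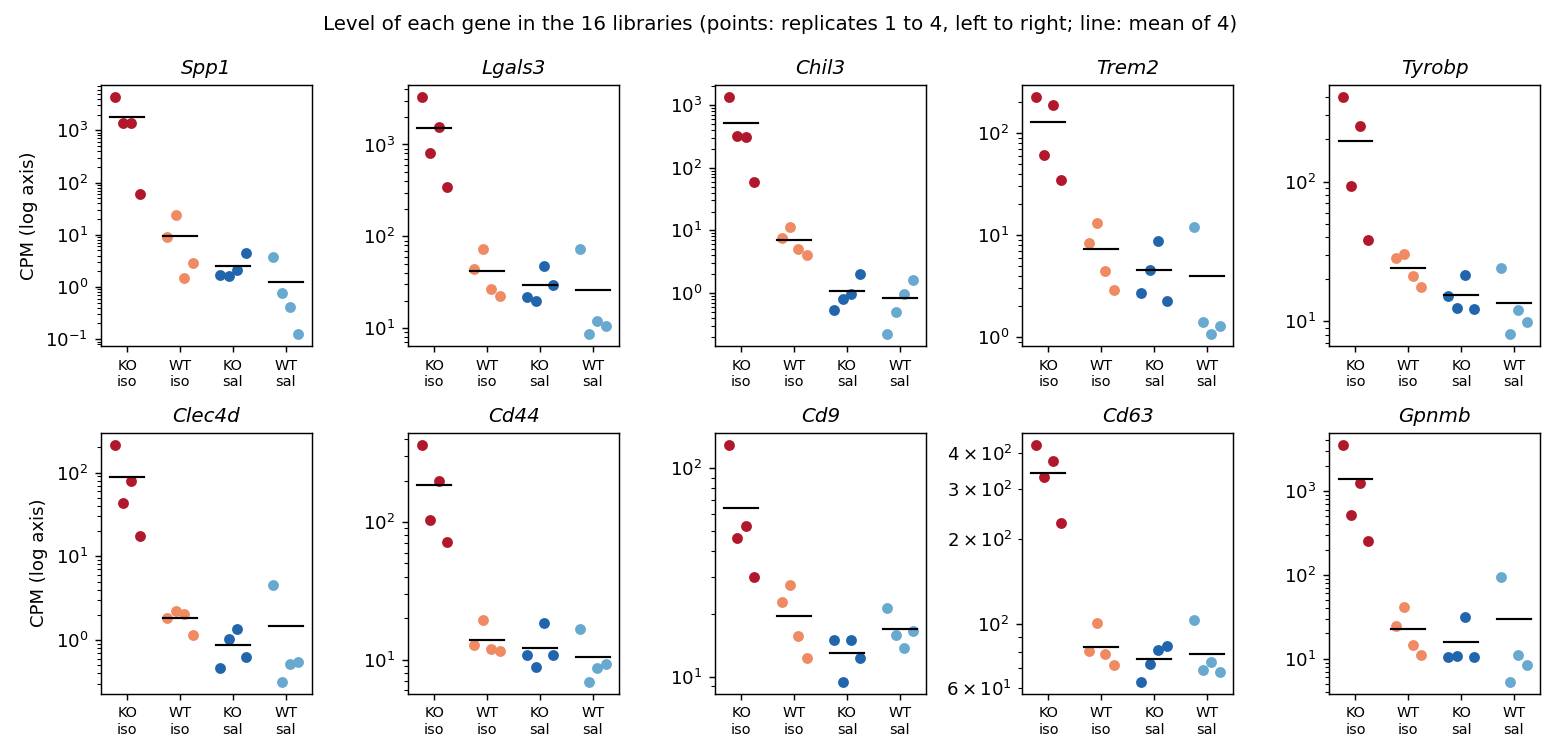
Level of each of the 10 genes in CPM (log axis, a different range in each panel) in the 16 libraries, by group (iso, isoproterenol; sal, saline), with points for replicates 1 to 4 from left to right and a line at the mean of 4. The KO isoproterenol points lie above the points of the other 3 groups in all 10 panels, with replicate 1 highest and replicate 4 lowest.

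Among the secreted proteins, osteopontin covered the widest range. Spp1 (ENSMUSG00000029304, chromosome 5) read 4399, 1373, 1376 and 61.3 CPM in KO isoproterenol replicates 1 to 4, and 9.08, 24.3, 1.48 and 2.91 CPM in WT isoproterenol. It read 1.66, 1.62, 2.14 and 4.54 CPM in KO saline and 3.75, 0.767, 0.419 and 0.125 CPM in WT saline, where replicate 4 held 1 read. The KO isoproterenol libraries were 71.8 times apart among themselves, more than for any other of the 10 genes in that group, and even the lowest of them was above every other library. The log2 difference between KO isoproterenol and KO saline was 8.54 (standard error, SE, 1.21), and that between KO and WT under isoproterenol was 7.25 (SE 1.21).

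Lgals3 (ENSMUSG00000050335, chromosome 14) encodes galectin-3, a lectin of macrophages that binds beta-galactosides and marks damaged lysosomes. Its level was 3304, 815, 1539 and 348 CPM in KO isoproterenol, 44.5, 72.3, 26.8 and 22.3 CPM in WT isoproterenol, 21.9, 19.9, 47.9 and 29.7 CPM in KO saline, and 72.5, 8.62, 12.1 and 10.7 CPM in WT saline. WT saline replicate 1 was as high as the highest WT isoproterenol library, and the WT groups overlap. The log2 difference from KO saline in KO isoproterenol was 5.29 (SE 0.69).

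Chil3 (ENSMUSG00000040809, chromosome 3), also called Ym1, encodes a chitinase-like lectin secreted by mouse macrophages. Its level was 1357, 316, 314 and 59.6 CPM in KO isoproterenol, 7.57, 11.2, 5.07 and 4.10 CPM in WT isoproterenol, 0.531, 0.791, 0.980 and 2.01 CPM in KO saline, and 0.220, 0.497, 0.977 and 1.62 CPM in WT saline. In both genotypes every isoproterenol library lay above every saline library. KO isoproterenol and KO saline differed by 8.29 on the log2 scale (SE 0.78). A near-identical copy, Chil4, is not among the listed genes, and how reads shared by the copies were counted is not given in the sources used here, so the Chil3 level is uncertain.

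Per kilobase, Trem2, Clec4d and Cd44 had lower mean levels in KO isoproterenol than the secreted proteins. The adaptor gene Tyrobp was near Chil3 (328 and 332 CPM per kb). It was above Chil3 in replicate 3 (418 against 204 CPM per kb) and replicate 4 (64.2 against 38.7). Trem2 (ENSMUSG00000023992, chromosome 17) read 227, 60.6, 188 and 35.1 CPM in KO isoproterenol, 8.42, 13.2, 4.45 and 2.91 CPM in WT isoproterenol, 2.73, 4.54, 8.67 and 2.24 CPM in KO saline, and 12.1, 1.40, 1.07 and 1.29 CPM in WT saline. Outside the KO isoproterenol group only WT isoproterenol replicate 2 read higher than WT saline replicate 1, and the 3 other WT saline libraries lay below all WT isoproterenol libraries. The log2 difference between KO isoproterenol and KO saline was 4.63 (SE 0.78).

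Tyrobp (ENSMUSG00000030579, chromosome 7), which encodes the adaptor DAP12 that couples TREM2 to the kinase SYK, read 404, 92.3, 250 and 38.3 CPM in KO isoproterenol, 28.3, 30.1, 21.1 and 17.5 CPM in WT isoproterenol, 15.2, 12.4, 21.4 and 12.2 CPM in KO saline, and 24.1, 8.08, 12.05 and 9.84 CPM in WT saline. KO isoproterenol and KO saline differed by 3.20 on the log2 scale (SE 0.55), less than for its partner Trem2. Per kilobase its mean level was above that of Trem2 in every group (328 against 117 CPM per kb in KO isoproterenol).

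Clec4d (ENSMUSG00000030144, chromosome 6) encodes a C-type lectin of myeloid cells that recognises fungal and mycobacterial glycolipids. It read 216, 43.1, 79.1 and 17.5 CPM in KO isoproterenol, 1.83, 2.24, 2.04 and 1.16 CPM in WT isoproterenol, 0.460, 1.04, 1.34 and 0.632 CPM in KO saline, and 4.54, 0.316, 0.512 and 0.540 CPM in WT saline. The 3 lower WT saline libraries held 3 to 6 reads each. The log2 difference between KO isoproterenol and KO saline was 6.23 (SE 0.78), and WT saline replicate 1 was above every WT isoproterenol library.

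Cd44 (ENSMUSG00000005087, chromosome 2), a receptor for hyaluronan and osteopontin found on many cell types, read 365, 104, 200.02 and 71.6 CPM in KO isoproterenol, 12.8, 19.4, 11.97 and 11.7 CPM in WT isoproterenol, 10.8, 8.87, 18.5 and 10.9 CPM in KO saline, and 16.7, 6.91, 8.70 and 9.26 CPM in WT saline. Outside KO isoproterenol the 3 groups overlap throughout. KO isoproterenol and KO saline differed by 3.70 on the log2 scale (SE 0.42).

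Among the other membrane proteins, Cd63 and Cd9 had modest differences and Gpnmb a steep one. Cd63 (ENSMUSG00000025351, chromosome 10) and Cd9 (ENSMUSG00000030342, chromosome 6) encode tetraspanins, which organise membrane microdomains and mark extracellular vesicles in many cell types. Cd63 read 429, 330.5, 375 and 228 CPM in KO isoproterenol, 80.7, 101, 78.4 and 71.8 CPM in WT isoproterenol, 62.8, 72.7, 81.4 and 84.3 CPM in KO saline, and 104, 69.3, 73.9 and 67.9 CPM in WT saline. Cd9 read 130, 46.2, 52.6 and 30.2 CPM in KO isoproterenol, 22.8, 27.5, 15.8 and 12.4 CPM in WT isoproterenol, 15.1, 9.45, 15.1 and 12.3 CPM in KO saline, and 21.4, 15.8, 13.7 and 16.6 CPM in WT saline. For both genes the 3 other groups overlapped. Their log2 differences between KO isoproterenol and KO saline were 2.15 (SE 0.19) for Cd63 and 2.12 (SE 0.36) for Cd9, the lowest of the 10. A Cd63 pseudogene is among the listed genes, so reads shared with it are uncertain.

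Gpnmb (ENSMUSG00000029816, chromosome 6) encodes a transmembrane glycoprotein of lysosomes and melanosomes that macrophages make under lysosomal load. It read 3576, 522, 1244 and 253 CPM in KO isoproterenol, 24.5, 41.0, 14.5 and 11.2 CPM in WT isoproterenol, 10.6, 10.9, 31.5 and 10.5 CPM in KO saline, and 93.4, 5.28, 11.1 and 8.34 CPM in WT saline. WT saline replicate 1 had the highest level outside the KO isoproterenol group. The log2 difference between KO isoproterenol and KO saline was 5.97 (SE 0.85). Pmel, the melanocyte marker that is among the listed genes (1 of 6), read 0.832 to 1.58 CPM in KO isoproterenol and 0.814 to 1.55 CPM in KO saline, so the Gpnmb difference was not accompanied by a Pmel difference of like size.

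**Figure D2:**
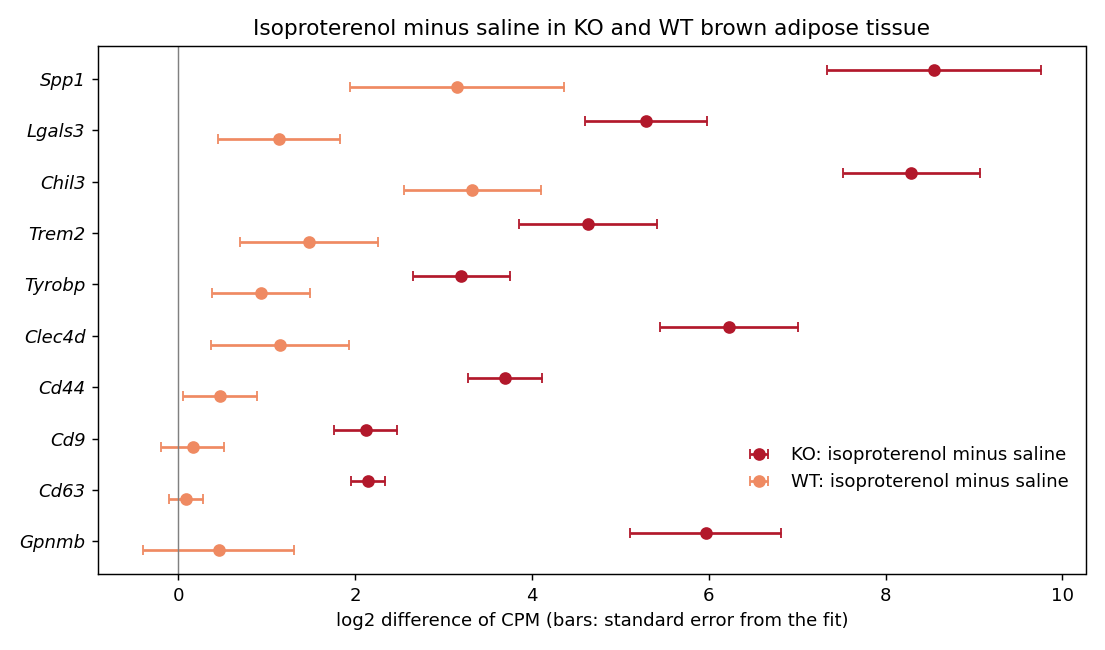
Log2 difference of CPM between isoproterenol and saline in KO (upper, dark) and in WT (lower, light) tissue for the 10 genes, with bars for the standard error of the fit over 16 libraries. KO differences run from 2.12 for Cd9 to 8.54 for Spp1, and WT differences from 0.09 for Cd63 to 3.33 for Chil3.

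Across the 10 genes the median log2 difference between KO isoproterenol and KO saline was 4.96, where all 15350 genes had a median of -0.002 and 23.8% of them were called higher (limma adjusted p under 0.05, adjusted over all genes by the Benjamini-Hochberg method). Against WT isoproterenol it was 4.43, with a median of 0.02 over all genes and 21.6% called higher. Leaving out any library of the comparison moved the first median between 4.49 (without KO isoproterenol replicate 1) and 5.48 (without KO isoproterenol replicate 4). The 2 comparisons share the KO isoproterenol libraries.

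Within KO isoproterenol the 10 genes kept a common order of libraries, with replicate 1 highest and replicate 4 lowest for all 10, and replicate 3 above replicate 2 for 9 of them (the exception was Chil3, at 316 CPM in replicate 2 and 314 CPM in replicate 3). Replicate 1 was highest and replicate 4 lowest for 25.3% of all genes, and for 59.9% of the 2248 genes at least 2-fold higher in KO isoproterenol than in KO saline, so this order is shared by much of what was higher in these libraries. The 10 genes together took 1.68%, 0.464%, 0.605% and 0.109% of the reads in KO isoproterenol replicates 1 to 4, against 0.0135% to 0.0339% for WT isoproterenol, 0.0135% to 0.0229% for KO saline and 0.0114% to 0.0381% in WT saline. Spp1 made up 30.5%, 37.1%, 24.5% and 5.37% of those reads in KO isoproterenol, and its share was lowest in replicate 4, where the total was lowest too. The brown adipocyte markers given above ran the other way, lowest in replicate 1 and highest in replicate 4, and their part in the result was not tested.

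In WT tissue Chil3 was the 1 gene of the 10 that passed the test after isoproterenol, and its difference was not tested against those of the others. Its log2 difference was 3.33 (SE 0.78, limma adjusted p = 0.00960), with 4.10 to 11.2 CPM in the 4 isoproterenol libraries and 0.220 to 1.62 CPM in the 4 saline libraries. The other 9 genes did not pass the test, and all 10 differences were above 0, with a median of 1.04 against -0.02 over all genes. The call of 1 in 10 is near the 7.6% of all genes called higher in WT. An unadjusted limma p under 0.05 was found for 2 of the 10 genes (Chil3 and Spp1). Even after adjustment 2546 of all 15350 genes were called in either direction, so nothing is read from that count. Chil3 was also the gene among the 10 whose WT groups did not overlap, where 16.3% of all genes had every WT isoproterenol library above every WT saline library.

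The WT differences that missed the threshold were 3.16 for Spp1 (SE 1.21, adjusted p = 0.0885), 1.48 for Trem2 (adjusted p = 0.216), 1.15 for Clec4d (0.345), 1.14 for Lgals3 (0.287) and 0.94 for Tyrobp (0.270). They were 0.47 for Cd44 (adjusted p = 0.480), 0.46 for Gpnmb (0.763), 0.16 for Cd9 (0.798) and 0.09 for Cd63 (0.802), all from the same limma fit. WT saline replicate 1 was the highest WT saline library for 9 of the 10 genes. Spp1 was also called with blocks by the replicate numbers of the column headers (limma adjusted p = 0.0464). Without WT saline replicate 1, limma called Spp1 (4.02, adjusted p = 0.0429), Trem2 (2.31, adjusted p = 0.0336) and Chil3 (2.81, adjusted p = 0.0316), 3 of the 10. The summed level of 18 general macrophage markers was 707 to 1246 CPM in WT isoproterenol and 353 to 762 CPM in WT saline, and 762 CPM was the value of that same replicate 1.

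Under saline the genotypes were not shown to differ for any of the 10 genes. None of the 10 was called by limma and none had an unadjusted p under 0.05, where 0.0977% of all genes were called in either direction. The log2 difference was 1.86 for Spp1 (SE 1.21, adjusted p = 0.837), 0.84 for Trem2 (adjusted p = 0.917), 0.56 for Chil3 (0.972) and -0.07 for Gpnmb (0.9996), with 7 of the 10 differences above 0 and a median of 0.27. In this comparison KO saline held 1.62 to 4.54 CPM of Spp1 and WT saline 0.125 to 3.75 CPM, levels of 1 to 42 reads in WT saline, so depth limits what could be seen.

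The difference of the 2 responses (KO isoproterenol minus saline, less WT isoproterenol minus saline) was 5.39 for Spp1 (SE 1.71), 5.51 for Gpnmb, 5.08 for Clec4d, 4.96 for Chil3, 4.15 for Lgals3, 3.22 for Cd44, 3.15 for Trem2, 2.26 for Tyrobp, 2.06 for Cd63 and 1.958 for Cd9. All genes had a median of 0.04 on this scale and 10.9% of them were called higher. These values contain the libraries that chose the genes and are a description. The order differs from that of the KO differences, where Spp1 and Chil3 came first, and these were also the genes with the highest WT differences.

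General macrophage markers were higher in the same libraries. Their summed level was 9384, 2527, 5753 and 1273 CPM in KO isoproterenol replicates 1 to 4, 707 to 1246 CPM in WT mice with isoproterenol, 454 to 788 CPM in the KO saline group and 353 to 762 CPM in the WT saline group. Of the 18 markers, 17 rose in KO after isoproterenol (limma adjusted p under 0.05), with a median log2 difference of 2.08. Over all genes 23.8% were called higher. Fcgr1, a high-affinity Fc receptor, reached 184 ± 167 CPM in KO isoproterenol against 4.13 ± 1.84 CPM in KO saline (SD, n = 4; 5.03 on the log2 scale, limma adjusted p = 1.57e-05), and Cd68, a lysosomal glycoprotein of macrophages, 586 ± 375 against 21.2 ± 5.69 CPM (4.56, limma adjusted p = 3.60e-06). Itgam, an integrin of myeloid cells, had a difference of 4.14 (limma adjusted p = 2.47e-05). Cx3cr1, a chemokine receptor of resident macrophages and monocytes, did not pass (0.30, limma adjusted p = 0.746).

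Set against the mean of those markers in the same library, 8 of the 10 genes stood higher in KO isoproterenol and 2 did not. The markers themselves differed unevenly between the KO groups, by 1.65 for Lyve1, 4.14 for Itgam, 4.56 for Cd68 and 5.03 for Fcgr1. Cd44 (3.70) and Tyrobp (3.20) differed less than the last 3 of these, and Trem2 (4.63) less than Fcgr1. The measure is the log2 CPM of a gene minus the mean log2 CPM of the 18 markers, and it is a description. For Spp1 it averaged 3.17 in KO isoproterenol (0.71 to 4.42 in the 4 libraries) against -2.94 in KO saline (-3.44 to -1.67), a change of 6.11. Chil3 changed by 5.86, Clec4d by 3.80, Gpnmb by 3.54, Lgals3 by 2.86, Trem2 by 2.20, Cd44 by 1.26 and Tyrobp by 0.77, and for these 8 genes the KO groups did not overlap. Cd9 changed by -0.31 and Cd63 by -0.28, and their KO groups overlapped, so these tetraspanins differed by about as much as the mean of the general macrophage markers did. Trem2 was even among the KO isoproterenol libraries on this measure (-0.09 to 0.28), as were Cd44 (0.38 to 0.94) and Lgals3 (3.22 to 3.99), whereas Spp1 was not. In WT, Chil3 was higher on this measure after isoproterenol without overlap (2.68), Cd9 and Cd63 were lower without overlap (-0.49 and -0.56), and the other 7 genes overlapped, with changes from -0.19 for Gpnmb to 2.51 for Spp1.

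**Figure D3:**
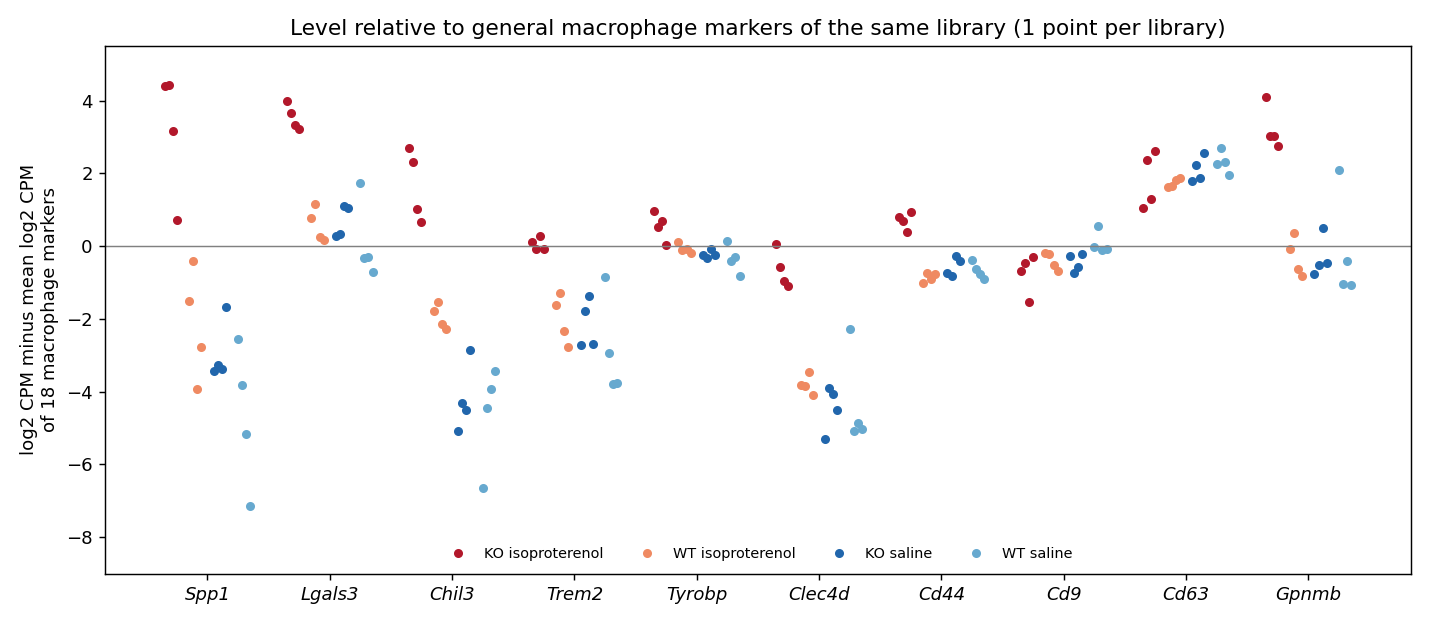
Log2 CPM of each gene minus the mean log2 CPM of 18 general macrophage markers in the same library, 1 point per library in 4 groups. KO isoproterenol points lie apart from KO saline points for 8 genes and overlap them for Cd9 and Cd63. Trem2, Cd44 and Lgals3 points of KO isoproterenol lie close together, while those of Spp1 run from 0.71 to 4.42.

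Other genes known from lipid-associated macrophages were also mostly higher. Of 28 such genes, chosen with earlier results of these data known and holding none of the 10, 19 rose and 0 fell in KO after isoproterenol (limma adjusted p under 0.05), with a median log2 difference of 1.26. The share of all genes called higher was 23.8%. The largest differences were those of Atp6v0d2, a subunit of the lysosomal proton pump (63.2 ± 52.5 CPM in KO isoproterenol against 1.98 ± 2.10 in KO saline, 5.11, limma adjusted p = 5.34e-04), and Capg, an actin-capping protein of macrophages (334 ± 277 against 18.1 ± 2.62 CPM, 3.80, limma adjusted p = 3.65e-05). Mmp12, the macrophage elastase, had a difference of 3.07 (limma adjusted p = 0.0199), which missed the threshold without KO isoproterenol replicate 1 (adjusted p = 0.0707), without KO isoproterenol replicate 3 (0.0510) or without KO saline replicate 2 (0.0658). Cathepsin L (Ctsl, 2.91), the cholesterol exporter Abcg1 (2.46) and Fabp5, a fatty acid binding protein (2.16, limma adjusted p = 6.51e-04), also rose.

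In WT 8 of the 28 rose and 1 fell, with a median of 0.26, where 7.6% of all genes were called higher. Which cells of the tissue carried these 9 genes was not tested. These 9 calls became 5 without WT isoproterenol replicate 2 or 4 or WT saline replicate 2 or 4, and 6 or 7 without any other WT library. Fabp5 reached 200 ± 52.9 CPM in WT isoproterenol against 76.6 ± 28.4 CPM in WT saline (1.41, limma adjusted p = 0.0306, over 0.05 with library totals and when any of 6 of the 8 WT libraries was left out). Apoe, the apolipoprotein that macrophages and adipocytes secrete, was the gene that fell, to 684 ± 93.6 CPM in WT isoproterenol against 2425 ± 182 CPM in WT saline (-1.83, limma adjusted p = 0.00263). In KO, Apoe averaged 1512 ± 1082 CPM in isoproterenol and 1380 ± 424 CPM in saline (-0.04, limma adjusted p = 0.936). The responses differed (limma adjusted p under 0.05) for 11 of the 28 genes. Of all 15350 genes, 3787 were called in either direction for this difference, and 10.9% were called higher. Of the 11, 10 had a higher and 1 a lower value in KO. The lower was Acp5, a tartrate-resistant acid phosphatase of osteoclasts and macrophages, at -0.76 in KO and 1.29 in WT (difference -2.05, limma adjusted p = 0.00603). With 5 of 7 osteoclast markers among the listed genes, their sum was 95.8 to 318 CPM in KO isoproterenol and 121 to 191 CPM in KO saline. It was 303 to 395 CPM in WT isoproterenol and 130 to 176 CPM in WT saline. Acp5 alone averaged 89.1 CPM in KO isoproterenol and 136 CPM in KO saline. Of the 5 markers, 2 were called higher in KO, Atp6v0d2 (5.11) and Ctsk (2.07), and 0 lower.

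Receptors for osteopontin and enzymes that cut it were listed as 14 genes, of which 11 are among the listed genes, and 7 of these rose and 0 fell in KO. Of all genes 23.8% were called higher in KO. Itgb7, an integrin chain of leukocytes, read 63.4 ± 67.3 CPM in KO isoproterenol and 5.19 ± 2.20 CPM in KO saline (2.92, limma adjusted p = 0.00190). Mmp3, a protease that cleaves osteopontin, read 43.2 ± 20.6 and 7.13 ± 1.98 CPM in the same groups (2.48, limma adjusted p = 9.92e-05), and Itgb3, the chain that forms the vitronectin receptor with the alpha V integrin, 9.13 ± 1.39 and 1.86 ± 0.303 CPM (2.29, limma adjusted p = 2.59e-06). Itgb3 was thus even among the KO isoproterenol libraries (7.08 to 10.1 CPM) although Spp1 was not. In WT, Itgb5, another partner of the alpha V chain, fell to 65.7 ± 4.81 CPM in isoproterenol, against 123 ± 9.94 CPM in saline (-0.91, limma adjusted p = 0.00489), and Itga9, an osteopontin receptor chain, rose by 0.99 (limma adjusted p = 0.0232). The Itga9 call was lost with the WT replicate pairs as a block (adjusted p = 0.0506), with library totals and without WT isoproterenol replicate 2, WT saline replicate 2 or WT saline replicate 3.

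Partners of TREM2, TYROBP and CLEC4D were mostly higher in KO tissue after isoproterenol. Of 21 genes, 19 rose and 1 fell in KO, with a median of 2.42, while in WT 0 rose and 1 fell, and the responses differed for 12, all higher in KO. Over all genes 23.8% were called higher in KO, 7.6% in WT and 10.9% for the difference of the responses. The 12 became 8 without WT saline replicate 1 or 3 and 19 without KO isoproterenol replicate 4, and the 1 call in WT became 5 when only the 8 WT libraries were fitted. Clec4e, the lectin Mincle that pairs with the product of Clec4d, read 3.18 to 195 CPM in KO isoproterenol and 0.125 to 0.402 CPM in KO saline (6.32, limma adjusted p = 6.81e-05). Trem1, a receptor of neutrophils and monocytes that also uses TYROBP, read 0.877 to 8.02 CPM in KO isoproterenol and no more than 0.125 CPM, under 3 reads a library, in KO saline. Lat2, an adaptor below TYROBP and SYK, had a difference of 3.60 (limma adjusted p = 1.33e-04). Vav2, a guanine nucleotide exchange factor that many tissues express, was the gene that fell in both genotypes, at -1.19 in KO (limma adjusted p = 5.99e-05) and -0.97 in WT (limma adjusted p = 0.00153). Its relative Vav1, restricted to blood cells, rose by 3.46 in KO (limma adjusted p = 2.82e-04).

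**Figure D4:**
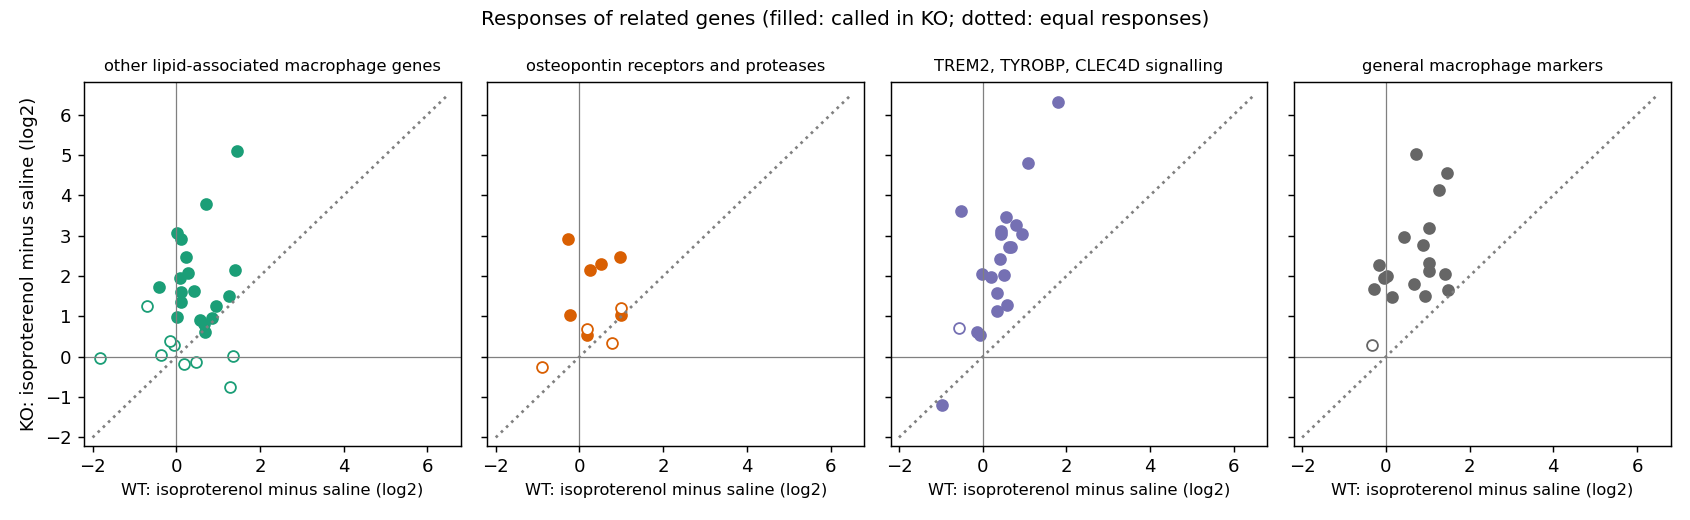
Log2 difference between isoproterenol and saline in KO (vertical axis) against that in WT (horizontal axis) for 4 gene lists that hold none of the 10 genes, with filled points for genes called in KO and a dotted line where the responses are equal. Most filled points lie above the dotted line. The 2 axes use different libraries.

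Of the 18 general markers, 4 rose in WT after isoproterenol and 0 fell, where 7.6% of all genes were called higher. The 4 markers were Lyve1, a hyaluronan receptor of resident macrophages (1.49, limma adjusted p = 0.0178), the mannose receptor Mrc1 (1.42, 0.0286), Cd68 (1.45, 0.0444) and the complement gene C1qc (1.04, 0.0467). With the WT replicate pairs as a block the calls of Mrc1 (adjusted p = 0.0647), Cd68 (0.0662) and C1qc (0.0847) were lost, and the same 3 were lost with library totals. The calls of Cd68 and of C1qc were lost without any 1 WT library other than WT saline replicate 1. The Mrc1 call was lost when any of 5 WT libraries was left out, and the Lyve1 call when any of 4 was. The count was 0 without WT isoproterenol replicate 2, WT saline replicate 2 or WT saline replicate 3, it was 1 without WT isoproterenol replicate 1 or 3, and it was 2 without replicate 4 of either group. The responses differed for 8 of the 18 markers, all higher in KO, where 10.9% of all genes were called higher. They differed for 14 markers without KO isoproterenol replicate 4.

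Families of the 10 genes did not move as wholes. The share of all genes called higher in KO was 23.8%, and 3813 of all 15350 genes were called lower. Among 13 other tetraspanins, 4 rose in KO, among them the leukocyte tetraspanins Cd53 (3.74) and Cd37 (2.31), and 4 fell, among them the widely expressed Cd81 (-1.09). Among 6 other genes of galectins and their partners 3 rose, among them Lgals3bp, a secreted binding partner of galectin-3 (2.34), and Lgals9 (1.65), and Lgals12, an adipocyte galectin, fell (-2.21). Of 4 chitinase-family genes only Chil1 is among the listed genes, at 2.11 CPM in KO isoproterenol and 0.284 CPM in KO saline (2.67, limma adjusted p = 0.00998). Of the transcription regulators linked to lysosomal and lipid genes, 4 of 7 rose in KO, with Tfec (4.09, limma adjusted p = 1.94e-04) and Mitf (1.30, limma adjusted p = 0.00772, and 0.0567 with only the 8 KO libraries) the highest.

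Markers of other cells that could carry these genes are given by their sums. Neutrophil markers (7 of 10 listed) summed to 451, 141, 181 and 68.2 CPM in KO isoproterenol replicates 1 to 4, 16.7 to 32.05 CPM in WT mice with isoproterenol, 6.15 to 8.67 CPM in the KO saline group and 7.26 to 12.9 CPM in WT saline, and the KO isoproterenol libraries stood in the same order as for Spp1. Of these 7, 6 were called higher and 1 lower in KO (median 4.77), and 3 higher and 1 lower in WT (median 1.87). Over all genes 23.8% were called higher in KO and 7.6% in WT. Genes called lower numbered 3813 in KO and 1379 in WT, of 15350. Fibroblast and adipocyte precursor markers (9 of 9 listed) summed to 6658, 1581, 5054 and 1460 CPM in KO isoproterenol replicates 1 to 4, also in the order of Spp1, against 1649 to 2121 CPM in KO saline, and 3 of the 9 (Pdgfra, Dcn and Pdgfrb) were called higher in KO. Endothelial markers summed to 1517 to 1674 CPM in KO isoproterenol and 1027 to 1475 CPM in KO saline (3 of 6 called higher), and Schwann cell markers to 111 to 175 CPM and 91.0 to 112 CPM in those groups (2 of 5 called higher). Mast cell markers had 1 of 5 called higher and 1 lower. Skeletal muscle markers ran from 11.9 to 504 CPM in KO isoproterenol and from 5.11 to 608 CPM in KO saline, with no order shared with Spp1 and 0 of 7 called, and lymphocyte markers (6 of 8 listed) summed to 2.81 to 14.2 CPM in KO isoproterenol and 8.73 to 21.6 CPM in KO saline (3 of 6 called lower). The part of these cells in the results was not tested.

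Over the 16 libraries, the 4 genes outside the set with the pattern closest to Spp1 were 4930430E12Rik, Slfn4, Saa3 and Ms4a4c. Likeness was the mean absolute difference between the log2 CPM of the gene and of Spp1, each centred on its own mean, and it was 1.13, 1.25, 1.39 and 1.41 for these genes in that order. Slfn4, a myeloid Schlafen gene, read 47.3 to 989 CPM in KO isoproterenol and 0.708 to 2.35 CPM in KO saline. Saa3, an acute-phase serum amyloid, read 26.3 to 54.5 and 0.208 to 0.834 CPM in those groups, Ms4a4c 17.6 to 229 and 0.375 to 2.35 CPM. 4930430E12Rik had 1269 reads over the 4 KO isoproterenol libraries and 2 over the 4 KO saline libraries. Among the 10 genes Chil3 came closest to Spp1 (1.32), then Lgals3 (1.51), Clec4d (1.56), Gpnmb (1.58) and Trem2 (1.73), and Cd9 (2.73) and Cd63 (2.75) were farthest. The closest pair within the 10 was Tyrobp and Cd44 (0.317), followed by Cd9 and Cd63 (0.342) and by Lgals3 and Gpnmb (0.359). The KO isoproterenol libraries, which all these genes share as their highest, weigh on the measure.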

How the data were processed

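Libraries of mRNA were made with a kit that marks strand and read once for 75 bp, per the labels' protocols. The deposited values are log2 CPM, 1 per Ensembl gene and library. STAR, limma and the mouse build mm39 are named in the submitters' processing notes, while their versions, the annotation and the counting rules were not given in the sources used here. The deposited values had the form log2 of (whole reads + 0.5) per 1000000 reads, and whole reads were recovered from 100% of them within 1e-06. Library sizes behind them were 0.854 to 1.25 times the totals. Depth limits genes of a few reads, and such limits cover counting error alone.

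Symbols, chromosomes and transcript lengths came from GENCODE M21 (build GRCm38), matched by identifier for 15320 genes and not for 30. A count model had been planned for count files. Because the values are log2 CPM, limma 3.58.1 (R 4.3.3, statmod 1.5.0) was fitted to the deposited values with 4 group means over 16 libraries and no further pseudocount, with empirical Bayes moderation (trend, robust). P-values were adjusted over 15350 genes and called under 0.05. The fit was tested on simulated data. Groups came from the labels and replicate numbers from the titles. In 3 KO saline files the column header carries another replicate number than the title. The treatment text of the saline samples describes isoproterenol, and their treatment label, which says saline, was used.

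The 10 genes, the other lists and the tests were chosen with earlier results of these data known, among them the rise of macrophage genes in KO, so the list counts are no independent support for it. Named genes were the 10, per related list the 3 called genes with the largest difference in KO, the 2 largest in WT and the 1 largest against the list's direction, and the 5 genes closest to Spp1, of which 1 is not reported here. Ctsl, Ctsk, Abcg1, Acp5, Cx3cr1, Mrc1, C1qc, Vav1, the fibroblast markers and the members named from the tetraspanin, galectin, chitinase and regulator lists were chosen after their values were seen. Same-numbered WT libraries deviated together in all 4 pairs (correlations of deviations from group means 0.210 to 0.535), which was taken as pairing within WT, while other pairs of groups did not show this in all 4. Libraries are not stated to be separate animals, so p-values show only how these samples spread, and that spread may be technical. Alternatives were the replicate blocks, library totals, a filter at a mean of 1 CPM, log2(CPM + 1), fits of 8 libraries and leaving out each library.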

Additional observations from a re-analysis of the deposited data

Results flagged for a closer look

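Among 40 sets of 4 libraries (10 genes in 4 groups), 3 held a library set far apart from the other 3 by Dixon's test. The test was on log2 CPM, while the levels printed here are CPM. Chance gives about 1 such set in 20. WT saline replicate 1 stood apart for Lgals3 (72.5 CPM, the next 12.1 CPM), a galectin of macrophages, and for the receptor gene Trem2 (12.1 CPM, the next 1.40 CPM). KO saline replicate 3 stood apart for Gpnmb (31.5 CPM, the next 10.9 CPM).

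For 11 of 18 named genes outside the set, the responses to isoproterenol differed between KO and WT in limma's interaction test. Over all genes 10.9% were called higher. Most of the 18 were picked for a large KO difference, which the interaction contains, so nothing is read from that count. The KO response minus the WT response was 3.09 on the log2 scale for Capg (adjusted p = 0.00804), 1.79 for Apoe (0.0174), 3.20 for Itgb7 (0.0214), 1.51 for Mmp3 (0.0481) and 1.77 for Itgb3 (0.00242). It was 4.51 for Clec4e (adjusted p = 0.0205), 3.74 for Trem1 (0.0301) and 4.13 for Lat2 (0.00331), partners of TREM2, TYROBP and CLEC4D. For the general macrophage markers it was 4.31 for Fcgr1 (adjusted p = 0.00417), 3.11 for Cd68 (0.00530) and 2.87 for Itgam (0.0139). The difference was -2.05 for Acp5 (adjusted p = 0.00603), a gene named after its values were seen. Apoe differs from the others in that its WT levels fell while its KO levels did not pass the test.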

How the results depend on the processing

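All 10 genes stayed higher in KO isoproterenol than in KO saline and than in WT isoproterenol under every alternative run. In WT the count of the 10 genes called was 2 with blocks by header numbers, an alternative chosen after seeing the data, and 1 to 3 with a library left out. Osteopontin receptors called in WT numbered 1 with the WT replicate block, 1 with library totals, 4 with only the 8 libraries and 1 to 2 with a library left out. General macrophage markers called in WT numbered 1 with the WT replicate block, 1 with library totals, 9 with only the 8 libraries and 0 to 3 with a library left out. Partners of TREM2 called in WT numbered 5 with only the 8 libraries. The other lipid-associated genes called in WT numbered 5 to 7 with a library left out. For the difference of the responses, TREM2 partners numbered 8 to 19 and general markers 6 to 14 with a library left out, and a fit of 8 libraries is not possible. The WT replicate block ended the WT calls of Itga9, Cd68, Mrc1 and C1qc, and no other call of a named gene in the isoproterenol against saline comparisons.

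Library totals shifted the median of all genes by 0.18 in KO, -0.11 in WT, 0.26 between genotypes under isoproterenol and 0.29 for the difference of the responses. Of 2546 genes called in WT, 1167 were higher and 1379 lower, against 770 and 1748 with library totals. In KO, of 7460 called, 3647 were higher and 3813 lower, against 4493 and 2939 with library totals. KO against WT under isoproterenol had 3311 higher and 3542 lower, against 5030 and 2527, and the difference of the responses 1674 and 2113, against 2895 and 1477. Only the 8 libraries gave 4923 calls in WT, more than the 2546 above. In KO they gave 5178 calls (2497 higher and 2681 lower), fewer than the 7460 above. Between genotypes under isoproterenol they gave 4639 calls, against 6853 in the main fit. The main fit shares its estimate of spread among all groups, and the 23.8% of all genes called higher in KO comes from it. The KO share and KO calls thus depend on that choice. KO against WT under saline had 15 calls, against 10 with library totals, 50 with only the 8 libraries, 5 with the WT replicate block and 4 to 11 with a library left out.

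Uncalled differences near 0 turned in sign. With library totals Cd63 was -0.026 in WT, Clec4d -0.029 between genotypes under saline, Mmp12 -0.11 in WT and Apoe 0.14 in KO, and with log2(CPM + 1) Clec4d was -0.14 and Mmp12 -0.13. With a library left out the ranges were -0.021 to 0.36 for Cd9, -0.012 to 0.23 for Cd63, -0.032 to 1.35 for Gpnmb and -0.64 to 1.07 for Mmp12 in WT, -0.43 to 0.85 for Clec4d, -0.11 to 0.089 for Cd63 and -0.56 to 0.83 for Gpnmb under saline, and -0.46 to 0.17 for Apoe and -0.44 to 0.998 for Cx3cr1 in KO. The cause of these moves was not tested. Depth limits Spp1, Chil3 and Clec4d in saline libraries, some of which held 1 to 6 reads.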
